A study of Mus musculus with 12 samples.

Results

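The genes described here were 7 transcription factors linked to the epithelial-mesenchymal transition (EMT), Twist1, Twist2, Snai1, Snai2, Zeb1, Zeb2 and Prrx1, together with Hmga1 and Hmga2, which encode the AT-hook high mobility group proteins. They were taken by symbol and were 9 of the 35013 genes in the deposited count table. The set was chosen with earlier results of these data known, so its counts and medians beside all genes are description only. All 9 passed the filter on low counts and were among the 13502 genes tested. Poly-A RNA had been sequenced from KP1 mouse cells, which the labels class as LUAD (lung adenocarcinoma). The series title asks how inhibition of histone deacetylases (HDACs) acts in tumours with active NRF2.

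There were 4 groups of 3 libraries: NRF2-overexpressing cells with romidepsin, NRF2-overexpressing cells with DMSO, empty-vector (EV) cells with romidepsin, and EV cells with DMSO. Romidepsin, an inhibitor of class I HDACs, was given at 5 nM for 16 h, and DMSO is its solvent. NRF2 switches on antioxidant and detoxification genes. All groups were KP1 cells and followed the same culture protocol, and the series design calls the 3 libraries of a group biological replicates. The labels name neither the promoter of the NRF2 vector nor the number of transductions or clones, so p-values measure only the spread between these cultures.

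EMT factors are DNA-binding proteins that switch off epithelial genes such as those for cell junctions and switch on genes of migrating mesenchymal cells. SNAI and ZEB proteins bind E-box sequences and recruit corepressors that include HDACs, TWIST proteins bind E-boxes as dimers with E proteins, and PRRX1 is a homeobox factor of mesenchymal tissue. HMGA proteins bend AT-rich DNA and open chromatin, are abundant in embryos and many carcinomas, and HMGA2 can induce Snai1 and Twist1 in cultured epithelial cells. Hmga2 mRNA is a classical target of the let-7 microRNAs.

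The 12 libraries held 16842824 to 28003010 estimated counts. Nfe2l2, the gene for NRF2, stood at 339 to 365 CPM (counts scaled to the TMM-normalised library size) in NRF2 cells with romidepsin and 281 to 352 CPM in NRF2 cells with DMSO, against 93.3 to 99.0 CPM in EV cells with romidepsin and 101 to 103 CPM in EV cells with DMSO. Replicate 3 of NRF2 cells with DMSO stood apart, with a root mean square log2 distance from its replicates of 0.465, against 0.255 to 0.350 in the other libraries, and with 7.3% mitochondrial counts, against 4.84 to 6.35%. Of the 15 markers of lung epithelium, 7 to 8 reached 1 CPM in a group, chiefly keratins, Cdh1, Foxa1 and Foxa2. The lung lineage markers Nkx2-1, Napsa, Scgb1a1 and the 4 surfactant genes each averaged under 0.318 CPM in the 4 groups, and Sftpa1 had no count in any library. Summed fibroblast and pericyte markers reached 15.3 to 18.2 CPM in NRF2 cells with romidepsin, 3.62 to 7.27 CPM in NRF2 cells with DMSO, 12.8 to 13.3 CPM in EV cells with romidepsin and 3.43 to 4.47 CPM in EV cells with DMSO. Of those 10 markers Col1a1, Pdgfra and Thy1 passed the filter, while Lum had no count in either romidepsin group and Dcn had none in EV cells. Summed immune markers (8 genes) reached 70.8 to 75.2 CPM in NRF2 cells with romidepsin, 4.38 to 4.91 CPM in NRF2 cells with DMSO, 50.3 to 55.9 CPM in EV cells with romidepsin and 2.88 to 4.5 CPM in EV cells with DMSO, nearly all of it Cd68, while the leukocyte marker Ptprc averaged under 0.55 CPM in the 4 groups. Summed neuronal markers (8 genes) reached 168 to 180, 26.4 to 32.7, 204 to 206 and 34.3 to 39.8 CPM in those groups, with Elavl4 at 0 in both DMSO groups, and the 6 endothelial markers 6.61 to 8.42, 4.18 to 5.01, 5.7 to 8.64 and 5.75 to 10.1 CPM, with Cdh5 at 0 in both DMSO groups. The part of any such cells in the results was not tested. In bulk RNA, fewer cells that express a gene and less of its RNA per cell cannot be told apart.

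Sequences are shown for the genes on which the comparisons turn. Twist1 (ENSMUSG00000035799.6, 12:33957671-33959829, plus strand, GRCm38) was the member with the largest difference between NRF2 and EV cells, and Snai1 (ENSMUSG00000042821.7, 2:167538195-167542814, plus strand) was the member that rose with romidepsin. Epcam (ENSMUSG00000045394.9, 17:87635979-87651129, plus strand), an epithelial adhesion gene, had the largest romidepsin change among the epithelial genes listed. The windows run from 250 bases before to 50 after the annotated start and are credited to RefSeq, GRCm38.p6. Capitals mark matches, on either strand, of TGACNNNGC, the core of the antioxidant response element that NRF2 and MAF proteins bind, or of CAGGTG, the E-box bound by SNAI and ZEB proteins, which reads CACCTG on the other strand.
Twist1 (chr12:33957421-33957720, plus): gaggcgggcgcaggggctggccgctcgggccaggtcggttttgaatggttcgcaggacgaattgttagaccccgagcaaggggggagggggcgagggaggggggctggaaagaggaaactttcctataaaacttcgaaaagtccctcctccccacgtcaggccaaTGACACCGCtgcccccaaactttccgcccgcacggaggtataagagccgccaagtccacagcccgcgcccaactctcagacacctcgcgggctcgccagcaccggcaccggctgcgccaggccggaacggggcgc
Snai1 (chr2:167537945-167538244, plus): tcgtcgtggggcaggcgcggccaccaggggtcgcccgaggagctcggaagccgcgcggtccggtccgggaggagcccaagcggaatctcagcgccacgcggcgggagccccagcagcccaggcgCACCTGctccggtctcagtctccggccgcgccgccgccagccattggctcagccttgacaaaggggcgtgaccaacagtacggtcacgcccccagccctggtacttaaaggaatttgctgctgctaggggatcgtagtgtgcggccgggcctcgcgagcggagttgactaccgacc
Epcam (chr17:87635729-87636028, plus): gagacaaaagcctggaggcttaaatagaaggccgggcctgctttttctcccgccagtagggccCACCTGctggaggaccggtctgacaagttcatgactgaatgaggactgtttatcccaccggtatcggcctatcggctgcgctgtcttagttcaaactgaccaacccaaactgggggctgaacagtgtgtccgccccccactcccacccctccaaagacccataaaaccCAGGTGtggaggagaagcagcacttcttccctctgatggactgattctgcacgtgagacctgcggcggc
The Twist1 window held 1 match of TGACNNNGC, beginning 85 bases before the start. The Snai1 window held 1 match of CAGGTG, beginning 126 bases before the start, and the Epcam window held 2, beginning 187 and 19 bases before it. Of 32851 promoter windows, 12.4% held TGACNNNGC at least 1 time, 20.2% held CAGGTG, and 2.88% held 2 or more CAGGTG. Of the 9 members 7 had a window (Snai2 and Zeb1 had no entry), and among them Hmga1 also held TGACNNNGC, while Twist2, Zeb2, Prrx1 and Hmga2 held neither motif. A match is a description of letters and not evidence of binding.

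Hmga2 (ENSMUSG00000056758.14, 10:120361275-120476469, minus strand, GRCm38) is shown for its let-7 sites, since it had the largest romidepsin fall among the members. The let-7 microRNAs share 1 seed, bases 2 to 8, in capitals in the first line (RefSeq, GRCm38.p6). The 4 lines after it are the matches of CTACCTC, the reverse complement of that seed, in the 3014-base 3' UTR of Hmga2, with the match in capitals (GENCODE M21, minus strand).
mmu-let-7a-5p (chr13:48538239-48538260, minus): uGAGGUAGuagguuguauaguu
Hmga2 site 1 (chr10:120364224-120364246): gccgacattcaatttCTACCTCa
Hmga2 site 2 (chr10:120362987-120363009): ccccactcctcaataCTACCTCt
Hmga2 site 3 (chr10:120362549-120362571): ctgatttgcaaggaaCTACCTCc
Hmga2 site 4 (chr10:120361691-120361713): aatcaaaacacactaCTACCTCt
At least 1 CTACCTC stood in the 3' UTR of 9.02% of 21022 genes, and at least 4 stood in that of 12 genes, or 0.0571%. The poly-A libraries do not measure mature microRNAs.

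The other members lie on GRCm38 at Twist2 (ENSMUSG00000007805.4, 1:91801461-91848028, plus strand), Snai2 (ENSMUSG00000022676.7, 16:14705852-14709385, plus strand), Zeb1 (ENSMUSG00000024238.15, 18:5591860-5775467, plus strand), Zeb2 (ENSMUSG00000026872.17, 2:44983632-45117395, minus strand), Prrx1 (ENSMUSG00000026586.16, 1:163245119-163313710, minus strand) and Hmga1 (ENSMUSG00000046711.16, 17:27556497-27563674, plus strand). Levels between genes were compared as CPM per kilobase of the longest annotated transcript. In every group Hmga1 ranked highest of the members and Hmga2 next, and both stood far above the EMT factors. The length-scaled level of Hmga1 was 797 ± 23.2 in NRF2 cells with romidepsin, 1743 ± 32.9 in NRF2 cells with DMSO, 874 ± 14.8 in EV cells with romidepsin and 1616 ± 99.0 in EV cells with DMSO (SD, n = 3 each), which put it between rank 36 and rank 81 of 13256 tested genes with a length. That of Hmga2 was 36.4 ± 0.679, 229 ± 16.5, 57.2 ± 3.76 and 213 ± 8.61 in the same groups, and its rank lay between 300 and 2010. Hmga1 and Hmga2 together took 0.177 to 0.186% of all counts in NRF2 cells with romidepsin and 0.405 to 0.417% in NRF2 cells with DMSO. In EV cells they took 0.205 to 0.209% with romidepsin and 0.373 to 0.405% with DMSO.

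The EMT factors had length-scaled levels far below those of the HMGA genes, and their order differed between the groups. In NRF2 cells with romidepsin, Zeb1 (5.68 ± 0.286 CPM per kilobase) and Snai2 (5.65 ± 0.397) did not differ beyond their spread, Snai1 followed at 2.79 ± 0.361, and Twist2, Prrx1, Twist1 and Zeb2 lay between 0.958 and 1.42. In NRF2 cells with DMSO, Snai2 (8.77 ± 1.08) and Zeb1 (8.43 ± 0.821) again lay within their spread, Prrx1, Twist2 and Zeb2 lay between 2.74 and 3.36, Twist1 was at 1.58 ± 0.179 and Snai1 was lowest at 0.628 ± 0.202. In EV cells with romidepsin, Snai2 led at 8.73 ± 0.620, Twist1 (4.99 ± 0.434) and Zeb1 (4.85 ± 0.224) lay within their spread, and Snai1, Prrx1, Twist2 and Zeb2 lay between 1.39 and 2.29. In EV cells with DMSO, Twist1 was highest at 11.2 ± 0.214, followed by Snai2 (9.43 ± 0.961), Zeb1 (6.16 ± 0.392), Prrx1 (5.61 ± 0.284), Zeb2 (4.17 ± 0.316), Twist2 (2.45 ± 0.119) and Snai1 (0.580 ± 0.196). Twist1 was thus the most abundant of the 7 factors per length in EV cells with DMSO and among the least abundant in both groups of NRF2 cells, where with romidepsin it did not differ beyond its spread from Prrx1 and Zeb2.

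**Figure D1:**
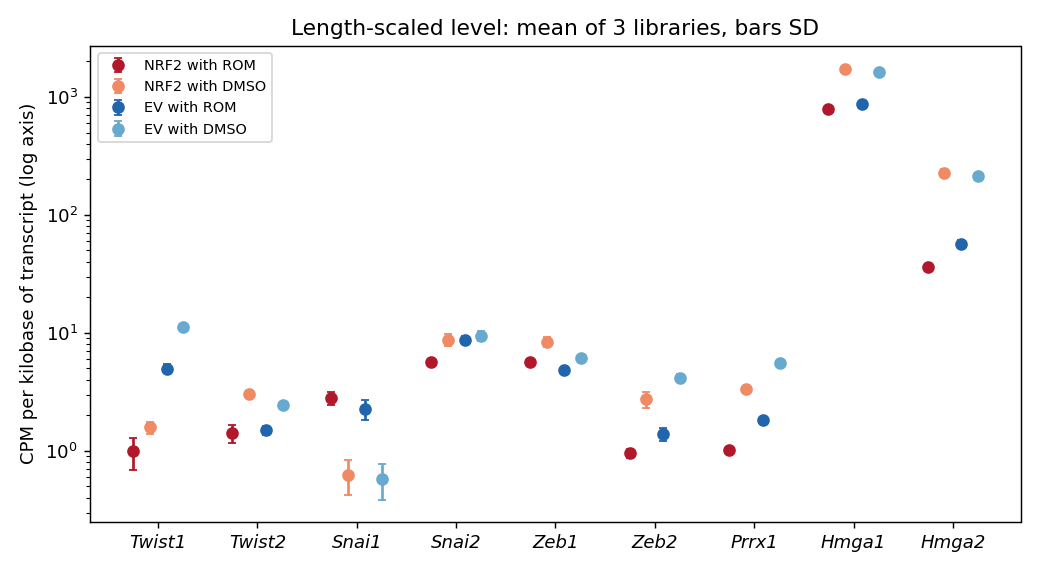
Mean length-scaled level of each gene (CPM per kilobase of transcript, log axis) in the 4 groups, with bars for the SD over 3 libraries. Hmga1 stands at 797 to 1743 and Hmga2 at 36.4 to 229, above the 7 transcription factors, whose highest mean is 11.2 for Twist1 in EV cells with DMSO.

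The comparison of NRF2 with EV cells without the inhibitor asks which of these genes differ with NRF2 overexpression alone. Twist1 was far lower in NRF2 cells, Zeb2 and Prrx1 were moderately lower, Zeb1 and Twist2 were somewhat higher, and Snai1, Snai2, Hmga1 and Hmga2 did not pass the test. With a threshold of 0.05 on the adjusted p of edgeR, 2 members passed as higher and 3 as lower, against 36.3% of all tested genes called (19.3% higher and 16.9% lower). The libraries of the lines did not overlap for 3 members that were higher and 3 that were lower, where 42.5% of all genes did not overlap (21.8% higher and 20.7% lower). The median log2 fold change was 0.099 over the members and -0.007 over all genes tested. Intervals given with log2 values are 95% intervals built from the SE and a t distribution with 8 residual degrees of freedom. The edgeR test also draws on the spread of other genes, so these intervals can be wider than that test implies.

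Twist1, the basic helix-loop-helix factor of cranial and limb mesenchyme, stood at 2.70, 2.25 and 2.79 CPM in NRF2 cells with DMSO, against 18.2, 18.6 and 17.9 CPM in EV cells with DMSO. All NRF2 libraries lay far below all EV libraries. The fall was 7.13-fold, or a log2 fold change of -2.83 ± 0.14 (SE), with an edgeR adjusted p of 6.2e-11, and it rested on 160 counts in NRF2 cells against 1119 in EV cells. Its close paralog Twist2, a dermal and osteoblast factor, stood at 8.11, 7.76 and 7.27 CPM in NRF2 cells, against 6.25, 6.45 and 5.86 CPM in EV cells. The groups did not overlap, but the rise was small (log2 0.33 ± 0.12, edgeR adjusted p = 0.044), and this call was lost in 13 of 22 alternative settings, where the adjusted p ran from 0.023 to 0.14. Per length, Twist2 was thus above Twist1 in NRF2 cells (3.06 ± 0.167 against 1.58 ± 0.179 CPM per kilobase) and Twist1 above Twist2 in EV cells (11.2 ± 0.214 against 2.45 ± 0.119).

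Prrx1, a homeobox factor of limb and craniofacial mesenchyme, stood at 22.1, 23.1 and 20.6 CPM in NRF2 cells with DMSO, against 38.6, 34.9 and 36.4 CPM in EV cells. The groups did not overlap, and the fall was 1.67-fold (log2 -0.74 ± 0.07, edgeR adjusted p = 1.3e-07). Its paralog Prrx2, not a member, gave a log2 fold change of -0.03 ± 0.07 that did not pass the test. With romidepsin Prrx2 was higher in NRF2 than in EV cells (log2 0.27 ± 0.07, edgeR adjusted p = 0.0047).

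Zeb1 and Zeb2, which encode zinc finger and homeobox repressors of Cdh1, went in opposite directions. Zeb2 stood at 23.2, 22.5 and 29.4 CPM in NRF2 cells, against 41.4, 36.5 and 36.3 CPM in EV cells, a 1.53-fold fall without overlap (log2 -0.61 ± 0.10, edgeR adjusted p = 0.00018). Zeb1 stood at 45.8, 46.5 and 54.4 CPM in NRF2 cells, against 38.1, 35.5 and 33.6 CPM in EV cells, a 1.37-fold rise without overlap (log2 0.45 ± 0.07, edgeR adjusted p = 8.3e-05). Replicate 3 of NRF2 cells with DMSO, the library that stood apart, was the highest of its group for both genes. Without it the log2 fold changes were -0.73 for Zeb2 and 0.38 for Zeb1, both still called.

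Snai1, the repressor that acts early in EMT, was near the limit of counting with DMSO, at 0.786, 0.875 and 1.39 CPM in NRF2 cells, against 1.18, 1.07 and 0.579 CPM in EV cells. These groups overlapped, they rested on 62 and 55 counts, and the 95% interval of the log2 fold change ran from -0.60 to 0.86. Snai2, the neural crest and wound-edge repressor also called Slug, stood at 16.4, 16.6 and 20.2 CPM in NRF2 cells, against 18.8, 17.3 and 21.1 CPM in EV cells. These overlapped too (log2 -0.12 ± 0.10, edgeR adjusted p = 0.38), but without replicate 3 of NRF2 cells with DMSO the value was -0.22 and passed the test (edgeR adjusted p = 0.044).

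Hmga1 stood at 3561, 3471 and 3433 CPM in NRF2 cells with DMSO, against 3014, 3398 and 3289 CPM in EV cells. The groups did not overlap, but the difference was small (log2 0.11 ± 0.05, edgeR adjusted p = 0.097). Without replicate 3 of NRF2 cells with DMSO the log2 value was 0.13 and it passed the test (edgeR adjusted p = 0.015). Hmga2 stood at 821, 850 and 942 CPM in NRF2 cells, against 795, 794 and 851 CPM in EV cells, and the groups overlapped (log2 0.10 ± 0.06, edgeR adjusted p = 0.19, interval -0.03 to 0.23).

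**Figure D2:**
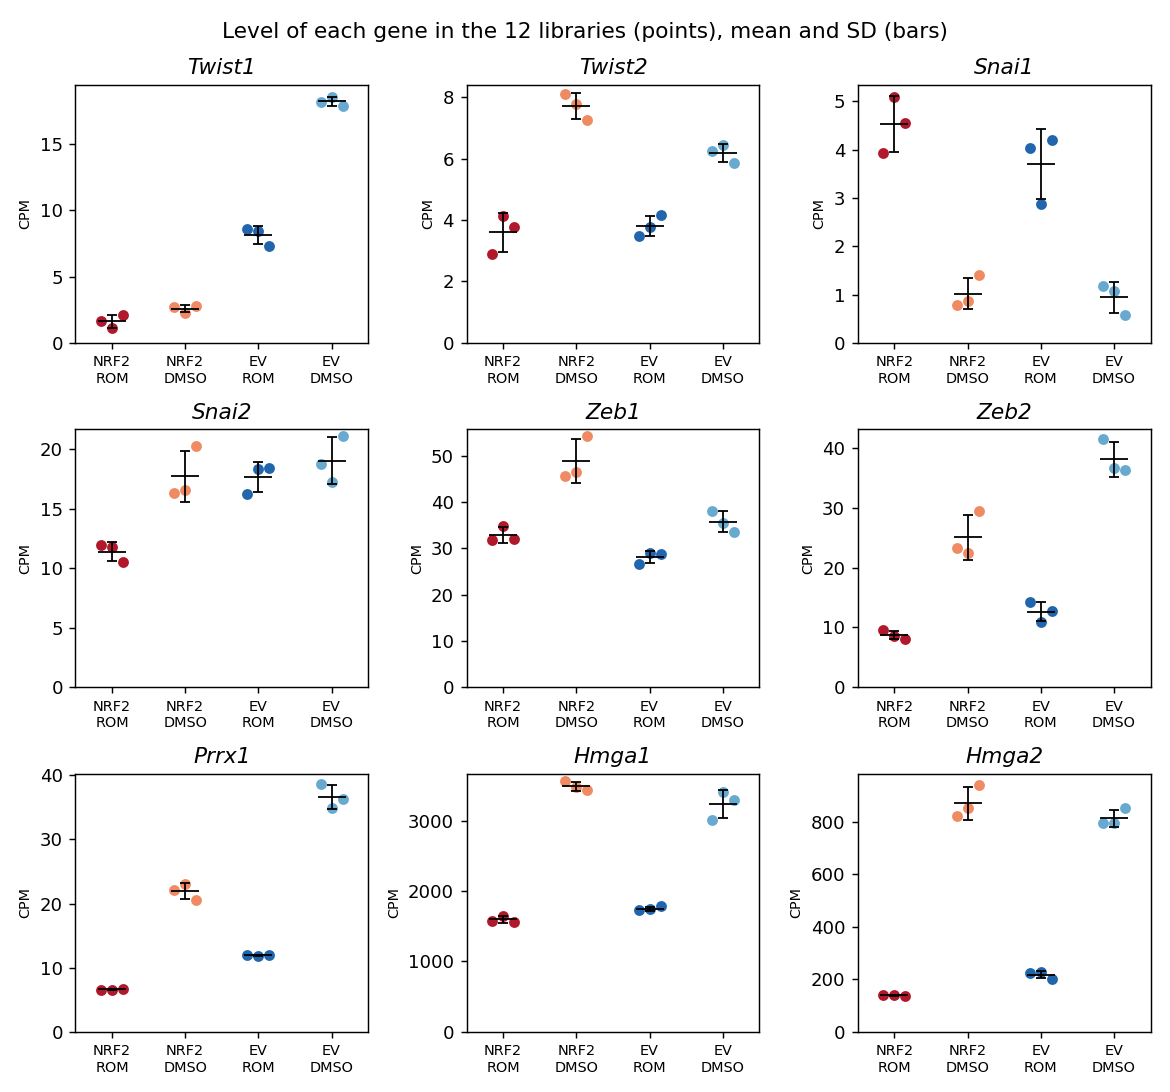
Level of each gene (CPM, axis from 0) in the 12 libraries, with points for libraries and bars for the mean and SD of each group of 3. Twist1 is low in both NRF2 groups and 18.2 CPM on average in EV cells with DMSO, Snai1 is high in both romidepsin groups, and Hmga1, Hmga2, Zeb2 and Prrx1 are lower with romidepsin in both lines.

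The next pair of comparisons asks what 16 h of romidepsin did in each line. Snai1 rose in both lines, while Twist1, Twist2, Zeb1, Zeb2, Prrx1, Hmga1 and Hmga2 fell in both, and Snai2 fell in NRF2 cells. In NRF2 cells 1 member was higher and 8 were lower, where 79.8% of all genes tested were called (40.5% higher and 39.3% lower). In EV cells 1 member was higher and 7 were lower, where 76.5% were called (39.1% higher and 37.4% lower). Libraries did not overlap for 1 higher and 8 lower members in NRF2 cells, where 40.8% of all genes stood apart as higher and 39% as lower, and for 1 higher and 7 lower members in EV cells, where the shares were 41.1% and 39.9%. With most genes called, being called says little by itself, so direction and size are given too. The median log2 fold change of the members was -1.095 in NRF2 cells and -0.887 in EV cells. Over all genes tested it was 0.015 and 0.011. Since the members were chosen with earlier results known, these medians are no support for a direction of the set. The 9 member calls in NRF2 cells and the 8 in EV cells kept their direction and stayed past the threshold in the alternatives run.

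Snai1 stood at 3.93, 5.10 and 4.56 CPM in NRF2 cells with romidepsin, against 0.786, 0.875 and 1.39 CPM in NRF2 cells with DMSO. It stood at 4.03, 2.89 and 4.20 CPM in EV cells with romidepsin, against 1.18, 1.07 and 0.579 CPM in EV cells with DMSO. All romidepsin libraries lay above all DMSO libraries in both lines. The rise was 4.58-fold in NRF2 cells (log2 2.19 ± 0.24, edgeR adjusted p = 1.7e-07) and 4.07-fold in EV cells (log2 2.02 ± 0.25, edgeR adjusted p = 1.1e-06). Snai3, a SNAI family gene and not a member, also rose, to 13.2 ± 0.523 CPM with romidepsin in NRF2 cells, against 5.14 ± 0.397 CPM with DMSO (log2 1.36), and to 11.6 ± 1.09 CPM in EV cells, against 3.31 ± 0.230 CPM (log2 1.81).

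Snai2 behaved differently from Snai1. It stood at 11.97, 11.8 and 10.5 CPM in NRF2 cells with romidepsin, against 16.4, 16.6 and 20.2 CPM in NRF2 cells with DMSO, a 1.54-fold fall without overlap (log2 -0.62 ± 0.10, edgeR adjusted p = 2.2e-05). In EV cells it stood at 16.2, 18.3 and 18.4 CPM with romidepsin, against 18.8, 17.3 and 21.1 CPM with DMSO. These libraries overlapped, and the log2 fold change of -0.12 had an interval of -0.34 to 0.11.

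The ZEB genes fell to unequal degrees, Zeb2 in particular. Zeb2 stood at 9.54, 8.58 and 8.10 CPM in NRF2 cells with romidepsin, against 23.2, 22.5 and 29.4 CPM with DMSO, and at 14.2, 11.0 and 12.8 CPM in EV cells with romidepsin, against 41.4, 36.5 and 36.3 CPM with DMSO. Neither line had overlapping groups. The fall was 2.84-fold in NRF2 cells (log2 -1.51 ± 0.12, edgeR adjusted p = 2.5e-09) and 3.01-fold in EV cells (log2 -1.59 ± 0.11, edgeR adjusted p = 7.4e-10). Zeb1 stood at 31.9, 34.8 and 32.1 CPM in NRF2 cells with romidepsin, against 45.8, 46.5 and 54.4 CPM with DMSO, and at 26.6, 28.9 and 28.8 CPM in EV cells with romidepsin, against 38.1, 35.5 and 33.6 CPM with DMSO. These falls of 1.48-fold (log2 -0.56 ± 0.07) and 1.27-fold (log2 -0.34 ± 0.07) were the smaller ones of the pair, with edgeR adjusted p-values of 1e-06 in NRF2 cells and 0.00041 in EV cells.

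Prrx1 fell by about the same factor as Zeb2. It stood at 6.55, 6.57 and 6.73 CPM in NRF2 cells with romidepsin, against 22.1, 23.1 and 20.6 CPM with DMSO, and at 11.9, 11.8 and 12.04 CPM in EV cells with romidepsin, against 38.6, 34.9 and 36.4 CPM with DMSO. The romidepsin libraries of each line lay close together and below all DMSO libraries of that line. The fall was 3.32-fold in NRF2 cells (log2 -1.73 ± 0.08, edgeR adjusted p = 6.2e-13) and 3.08-fold in EV cells (log2 -1.62 ± 0.07, edgeR adjusted p = 7.1e-13).

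The TWIST genes fell in both lines, from different starting levels. Twist1 stood at 1.64, 1.13 and 2.11 CPM in NRF2 cells with romidepsin, against 2.70, 2.25 and 2.79 CPM with DMSO, a 1.63-fold fall (log2 -0.70 ± 0.19, edgeR adjusted p = 0.0024) that rested on 104 counts against 160. In EV cells it stood at 8.60, 8.47 and 7.32 CPM with romidepsin, against 18.2, 18.6 and 17.9 CPM with DMSO, a 2.24-fold fall (log2 -1.16 ± 0.12, edgeR adjusted p = 8.6e-08). Neither line had overlapping groups. Twist2 stood at 2.90, 4.11 and 3.76 CPM in NRF2 cells with romidepsin, against 8.11, 7.76 and 7.27 CPM with DMSO, and at 3.49, 3.79 and 4.15 CPM in EV cells with romidepsin, against 6.25, 6.45 and 5.86 CPM with DMSO. It fell 2.14-fold in NRF2 cells (log2 -1.10 ± 0.13, edgeR adjusted p = 3.5e-07) and 1.62-fold in EV cells (log2 -0.69 ± 0.13, edgeR adjusted p = 0.00011), again without overlap.

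The HMGA genes, the most abundant members, fell steeply. Hmga2 stood at 139, 141 and 136 CPM in NRF2 cells with romidepsin, against 821, 850 and 942 CPM with DMSO, a 6.28-fold fall (log2 -2.65 ± 0.06, edgeR adjusted p = 2.1e-16). In EV cells it stood at 223, 229 and 202 CPM with romidepsin, against 795, 794 and 851 CPM with DMSO, a 3.73-fold fall (log2 -1.90 ± 0.06, edgeR adjusted p = 1.3e-14). Its romidepsin libraries lay far below its DMSO libraries in both lines. Hmga1 stood at 1573, 1648 and 1563 CPM in NRF2 cells with romidepsin, against 3561, 3471 and 3433 CPM with DMSO, a 2.19-fold fall (log2 -1.13 ± 0.05, edgeR adjusted p = 6.9e-13). In EV cells it stood at 1725, 1740 and 1782 CPM with romidepsin, against 3014, 3398 and 3289 CPM with DMSO, a 1.85-fold fall (log2 -0.89 ± 0.05, edgeR adjusted p = 2.6e-11).

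Because Hmga2 fell more than Hmga1, the ratio of Hmga1 to Hmga2 counts was 11.3 to 11.7 in NRF2 cells with romidepsin, against 3.65 to 4.34 in NRF2 cells with DMSO. It was 7.61 to 8.84 in EV cells with romidepsin, against 3.79 to 4.28 in EV cells with DMSO. The ratio did not overlap between romidepsin and DMSO in either line, nor between the lines with romidepsin. The near-identical copy Hmga1b held 0.06 to 0.17% of the counts of the pair, and summing both left each Hmga1 call as it was. AI413582, which overlaps Hmga1 on the opposite strand, held 10238 counts against 638811 for Hmga1. It rose with romidepsin (log2 1.34 in NRF2 cells and 1.07 in EV cells), whereas Hmga1 fell. Whether the counting used strand was not given in the sources used here.

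**Figure D3:**
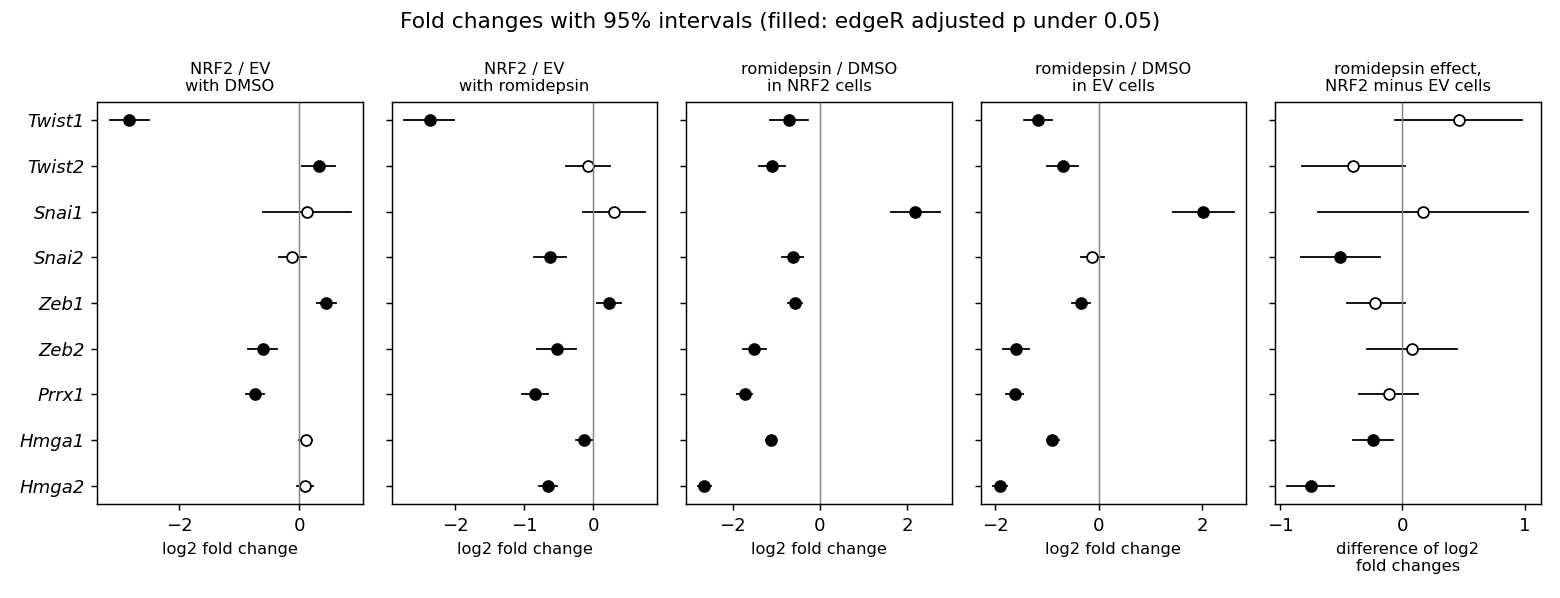
Log2 fold changes of the 9 genes with 95% intervals for NRF2 over EV with DMSO and with romidepsin, romidepsin over DMSO in NRF2 and in EV cells, and the difference between the 2 romidepsin effects, with filled points for an edgeR adjusted p under 0.05. Snai1 is the gene right of 0 in both romidepsin panels (2.19 and 2.02), Twist1 is farthest left in both NRF2 panels (-2.83 and -2.37), and Hmga2 is farthest left in the difference (-0.75).

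With romidepsin present, Twist1 was again far lower in NRF2 than in EV cells, and Prrx1, Zeb2, Snai2, Hmga2 and, slightly, Hmga1 were lower too. In all, 1 member was higher and 6 were lower, against 45.4% of all genes called (23% higher and 22.4% lower). The libraries did not overlap for 1 higher and 6 lower members, where 61.2% of all genes did not overlap (30.8% higher and 30.4% lower). The members' median log2 fold change was -0.528, beside -0.003 over all genes. The comparisons of NRF2 with EV cells and of romidepsin with DMSO share their groups, so their values are not independent of each other.

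Twist1 was 5.18-fold lower in NRF2 cells with romidepsin than in EV cells with romidepsin (log2 -2.37 ± 0.16, edgeR adjusted p = 5.6e-09). Its highest NRF2 library, at 2.11 CPM, lay below its lowest EV library, at 7.32 CPM. Prrx1 was 1.80-fold lower (log2 -0.85 ± 0.08, edgeR adjusted p = 2.6e-07) and Zeb2 1.44-fold lower (log2 -0.53 ± 0.12, edgeR adjusted p = 0.0021), neither with overlap. Hmga2 was 1.57-fold lower (log2 -0.65 ± 0.06, edgeR adjusted p = 1.4e-07) and Snai2 1.54-fold lower (log2 -0.62 ± 0.10, edgeR adjusted p = 8.7e-05), where both had not passed the test between the lines with DMSO. Zeb1 was 1.17-fold higher (log2 0.23 ± 0.07, edgeR adjusted p = 0.017), a call lost without either of 2 libraries, NRF2 romidepsin replicate 2 (adjusted p = 0.093) or EV romidepsin replicate 1 (adjusted p = 0.080). Hmga1 was 1.10-fold lower (log2 -0.13 ± 0.05, edgeR adjusted p = 0.038), a call lost in 6 of 23 alternative settings, which include leaving out any EV romidepsin library or NRF2 romidepsin replicate 1 or 3. Twist2 and Snai1 overlapped between the lines, with intervals of the log2 fold change of -0.39 to 0.24 and of -0.15 to 0.75.

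Whether the romidepsin effect itself differed between the lines was tested as an interaction, the log2 effect in NRF2 cells minus that in EV cells. Snai2, Hmga1 and Hmga2 fell more in NRF2 cells and no member fell less at the threshold, against 15.8% of all genes called (5.53% higher and 10.2% lower). The difference was -0.75 ± 0.08 for Hmga2 (edgeR adjusted p = 1.1e-05, interval -0.94 to -0.56), which passed in every alternative run. For Snai2 it was -0.51 ± 0.14 (edgeR adjusted p = 0.021), and the call was lost without any of 4 libraries, NRF2 romidepsin replicate 3, EV romidepsin replicate 2, EV romidepsin replicate 3 or EV DMSO replicate 2 (adjusted p 0.053 to 0.062). For Hmga1 it was -0.24 ± 0.07 (edgeR adjusted p = 0.026), and the call was lost without NRF2 romidepsin replicate 3, any of the 3 EV romidepsin libraries or EV DMSO replicate 1 (adjusted p 0.055 to 0.070). Twist1 gave 0.46 ± 0.23 and did not pass (edgeR adjusted p = 0.19, interval -0.06 to 0.98), although without NRF2 romidepsin replicate 2, its lowest library, it was 0.71 and passed (adjusted p = 0.037). Prrx1 (-0.11 ± 0.10, interval -0.35 to 0.13) and Zeb2 (0.08 ± 0.16, interval -0.29 to 0.45) did not pass, and neither did Twist2 (-0.40 ± 0.18), Zeb1 (-0.22 ± 0.10) and Snai1 (0.17 ± 0.37).

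Genes known to act with the members were described by lists, and the largest change in a list means the largest among its called genes that averaged at least 1 CPM over the groups compared. List counts are to be read beside the shares over all genes tested. With romidepsin these were 40.5% higher and 39.3% lower in NRF2 cells, and 39.1% and 37.4% in EV cells. For NRF2 over EV they were 19.3% higher and 16.9% lower with DMSO, and 23% and 22.4% with romidepsin. Epithelial genes that EMT factors repress were called higher with romidepsin more often than lower, but many of the risers were near 0 without it. Of 28 such genes 24 were tested, and 20 rose and 4 fell in NRF2 cells, while 18 rose and 3 fell in EV cells (median log2 fold change 1.46 and 1.14). Epcam reached 7.24 ± 0.213 CPM in NRF2 cells with romidepsin on 486 counts, against 4 counts with DMSO, and 3.59 ± 0.525 CPM in EV cells on 229 counts, against 2 counts. In NRF2 cells 11 of the 24 averaged under 1 CPM with DMSO, and all 11 were among the 20 that rose, while the other 13 gave 9 higher and 4 lower. In EV cells 10 averaged under 1 CPM with DMSO and held 8 of the 18 that rose, while the other 14 gave 10 higher and 3 lower. Genes such as Epcam, Tjp3, Cldn4, Crb3, Rab25 and Marveld3 passed the filter through their romidepsin libraries, so they could hardly be called lower, and the counts and medians of the list are no support for a direction. Ocln, a tight junction gene, reached 4.99 ± 0.341 CPM in NRF2 cells with romidepsin, against 0.418 ± 0.340 CPM with DMSO, and 6.64 ± 0.465 CPM in EV cells with romidepsin, against 1.21 ± 0.0655 CPM with DMSO.

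Cdh1, E-cadherin and the best known target of SNAI and ZEB repression, went against the majority of that list. It was at 227 ± 2.92 CPM in NRF2 cells with romidepsin, against 417 ± 9.78 CPM with DMSO (log2 -0.88 ± 0.04, edgeR adjusted p = 3.1e-12). In EV cells it was at 246 ± 10.3 CPM with romidepsin, against 353 ± 11.5 CPM with DMSO (log2 -0.52 ± 0.04, edgeR adjusted p = 5.7e-09). Cdh1 fell in both lines, and the interaction passed too (-0.36 ± 0.06, edgeR adjusted p = 0.00072). Between the lines, 7 of the 24 epithelial genes were higher and 3 lower in NRF2 cells with DMSO, the largest rises being those of the keratins Krt7 (log2 0.74), Krt8 (0.72) and Krt19 (0.66). Cldn3 and Tjp3 were also called higher there, on 35 and 24 counts in NRF2 cells against 1 and 5 in EV cells. The Tjp3 libraries overlapped, with 12, 12 and 0 counts in NRF2 cells and 0, 2 and 3 in EV cells. The 0 in NRF2 cells was in replicate 3, the library that stood apart. With romidepsin 11 were higher and 3 lower in NRF2 cells, led by the claudins Cldn3 (2.03) and Cldn4 (1.24). Cldn3 (149 counts in NRF2 and 34 in EV cells with romidepsin) and Marveld3 (58 and 17) passed the filter through their NRF2 libraries. They could hardly be called lower in NRF2 cells, so the counts between the lines are no support for a direction.

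The mesenchymal genes moved both ways. Of 28 genes 19 were tested, and with romidepsin 11 rose and 7 fell in NRF2 cells, while 10 rose and 6 fell in EV cells (median log2 0.42 and 0.47). Vim, the intermediate filament vimentin, rose to 5348 ± 179 CPM with romidepsin in NRF2 cells, against 3079 ± 173 CPM with DMSO, and to 6107 ± 38.7 CPM in EV cells, against 3438 ± 78.3 CPM. Cdh2, N-cadherin, fell to 29.3 ± 0.659 CPM with romidepsin in NRF2 cells, against 77.8 ± 8.10 CPM with DMSO, and to 41.3 ± 0.505 CPM in EV cells, against 99.4 ± 0.363 CPM. Cdh1, Vim and Cdh2 were named after their values were seen. Among those averaging 1 CPM over the groups compared, Col1a1 had the largest rise (log2 3.33 in NRF2 and 3.5 in EV cells). Of the mesenchymal genes that rose, 2 in NRF2 cells and 3 in EV cells averaged under 1 CPM with DMSO. Col1a1 and Mmp9 were among them. Mmp9 had 97 counts with romidepsin against 1 with DMSO in NRF2 cells, and 24 against 1 in EV cells. It passed the filter through its NRF2 romidepsin libraries, so it could hardly be called lower with romidepsin. Col1a1 also stands in the fibroblast marker list, whose summed level moved with romidepsin as given above, and the part of such cells was not tested. Between the lines Tnc, the matrix protein tenascin C, was lower in NRF2 cells both with DMSO (log2 -1.47) and with romidepsin (-3.02), and Loxl2, a lysyl oxidase, was higher in both (1.89 and 1.16).

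**Figure D4:**
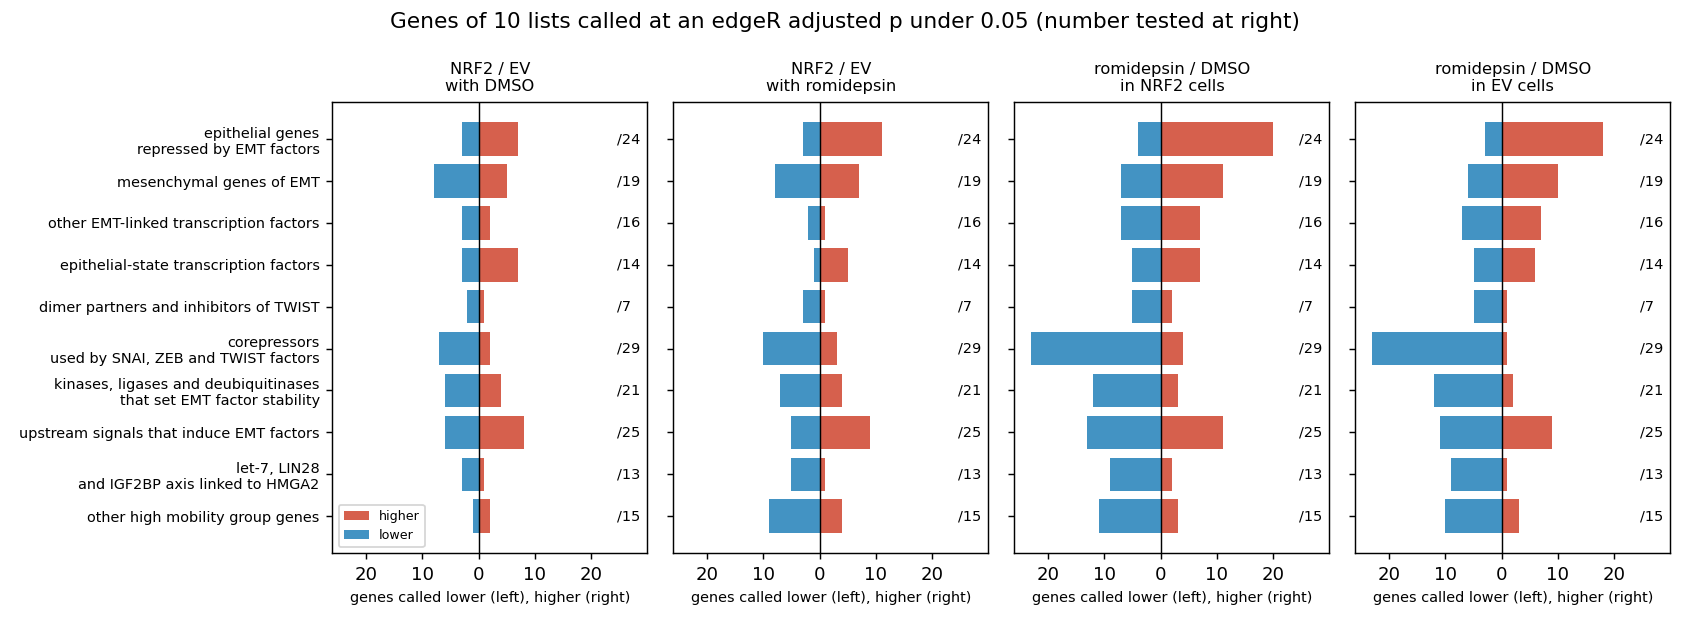
Number of genes of each of the 10 lists called lower (left) or higher (right) at an edgeR adjusted p under 0.05, with the number tested at the right of each panel, for NRF2 over EV with DMSO and with romidepsin and for romidepsin over DMSO in NRF2 and in EV cells. Of 24 epithelial genes 20 and 18 are called higher with romidepsin in NRF2 and in EV cells, of which 11 and 8 averaged under 1 CPM with DMSO, and corepressors mostly fall (23 of 29 in each line). Over all genes tested, 40.5% and 39.1% are called higher with romidepsin in NRF2 and in EV cells, and 39.3% and 37.4% lower.

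Corepressors and chromatin enzymes used by SNAI, ZEB and TWIST proteins fell in 23 of 29 cases in each line with romidepsin, and 4 rose in NRF2 cells and 1 in EV cells (median log2 -0.68 and -0.59). Over all genes tested, 39.3% fell in NRF2 cells and 37.4% in EV cells, with median log2 values of 0.015 and 0.011. The Polycomb gene Bmi1, a partner of TWIST1, fell to 18.0 ± 0.230 CPM in NRF2 cells with romidepsin, against 83.2 ± 3.52 CPM with DMSO, and to 20.8 ± 1.53 CPM in EV cells, against 85.0 ± 0.842 CPM. Mta3 (log2 -1.86 in NRF2 and -1.48 in EV cells), a NuRD subunit, and Nsd2 (-1.64 and -1.33), a histone methyltransferase, fell as well. Hdac1, a target of romidepsin, was the largest riser of the list in both lines (0.87 and 0.80). Between the lines with DMSO the changes were small, with 2 higher and 7 lower and the largest log2 change was 0.27 in size (Mta2 higher by 0.27, Limd1 lower at -0.27).

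The E proteins that pair with TWIST and the ID proteins that block such pairing were measured for 7 of 9 genes. With romidepsin 5 fell in each line, and 2 rose in NRF2 cells and 1 in EV cells. Tcf12, an E protein, fell to 29.4 ± 0.892 CPM in NRF2 cells with romidepsin, against 97.0 ± 12.3 CPM with DMSO, and to 33.5 ± 1.24 CPM in EV cells, against 93.4 ± 7.99 CPM. Id3 fell in both lines (log2 -1.59 and -1.17) and was also lower in NRF2 than in EV cells with DMSO (-0.67) and with romidepsin (-1.08). Id4 was lower in NRF2 cells with DMSO (-1.70), and Id2 was the gene that was higher (0.53).

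Of 16 tested other EMT-linked factors, 7 were called higher and 7 lower with romidepsin in each line. Of those higher, 4 in NRF2 cells and 3 in EV cells averaged under 1 CPM with DMSO, among them Tbx2, Lef1 and Hic1, which passed the filter through their romidepsin libraries. Klf8, a repressor of Cdh1, rose in NRF2 cells (log2 2.35) and in EV cells (0.65). In NRF2 cells it had been at 0.945 ± 0.259 CPM with DMSO, against 3.79 ± 0.0519 CPM in EV cells with DMSO (-1.97). Foxq1 fell in NRF2 and in EV cells (-2.30 and -1.66), as did Yap1 (-1.57 and -1.37). Among 14 tested factors of the epithelial state, 7 rose and 5 fell in NRF2 cells and 6 rose and 5 fell in EV cells. Of those that rose, 3 in each line averaged under 1 CPM with DMSO, Grhl3 with no count there, and passed the filter through their romidepsin libraries. Elf3 rose (3.19 and 2.93), whereas Hnf4a, a liver and gut factor, fell (-3.33 and -3.02). With DMSO, Gata6 (1.36), Hnf4a (1.32) and Klf4 (1.10) were higher in NRF2 than in EV cells, 3 of the 7 higher, and 3 were lower.

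Kinases, ligases and deubiquitinases that set the stability of EMT factors fell in 12 of 21 cases in each line with romidepsin, and 3 rose in NRF2 cells and 2 in EV cells. Among those averaging 1 CPM, Skp2, a ubiquitin ligase subunit, fell (log2 -1.18 and -1.10) and Pak1, a kinase that acts on SNAI1, rose (0.83 and 0.80). Of 25 upstream signalling genes 11 rose and 13 fell in NRF2 cells and 9 rose and 11 fell in EV cells. Beside both lists, 39.3% of all genes tested fell in NRF2 cells and 37.4% in EV cells, and 40.5% and 39.1% rose. Notch1, a receptor whose signal can induce Snai1, rose to 8.79 ± 1.5 CPM in NRF2 cells with romidepsin, against 0.584 ± 0.256 CPM with DMSO, and to 2.86 ± 0.439 CPM in EV cells, against 0.580 ± 0.0752 CPM. Between the lines with DMSO, 8 signalling genes were higher and 6 lower in NRF2 cells, with Bmp4 (-1.72) the largest.

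Regulators of the let-7 pathway and RNA-binding proteins linked to Hmga2 were tested for 13 genes, of which 9 fell in each line with romidepsin, while 2 rose in NRF2 cells and 1 in EV cells (median log2 -0.52 in both). Lin28b, which blocks let-7 maturation, fell to 4.75 ± 0.479 CPM in NRF2 cells with romidepsin, against 21.1 ± 0.751 CPM with DMSO, and to 6.68 ± 0.772 CPM in EV cells, against 19.2 ± 0.715 CPM. The fall was 4.41-fold (edgeR adjusted p = 9.1e-13) and 2.87-fold (9.0e-11). The difference between the lines passed (log2 -0.62 ± 0.14, edgeR adjusted p = 0.0049), where 15.8% of all genes were called. A part of Lin28b in the fall of Hmga2 was not tested. Igf2bp3, an mRNA-binding protein reported to protect HMGA2 mRNA in human cells, fell 2.11-fold in NRF2 cells and 1.85-fold in EV cells. Arid3b was the largest gene to go the other way (0.91 and 1.46).

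The other high mobility group genes also mostly fell with romidepsin, 11 of 15 tested in NRF2 cells and 10 in EV cells, with 3 rising in each (median log2 -0.62 and -0.80). Hmgb2, a DNA-bending protein of dividing cells, fell to 36.2 ± 2.64 CPM in NRF2 cells with romidepsin, against 263 ± 48.6 CPM with DMSO, and to 70.7 ± 3.42 CPM in EV cells, against 271 ± 9.84 CPM. Hmgb3 (log2 -2.68 and -2.07) and Hmgn2 (-2.22 and -1.86) fell too. The interaction was called lower for 8 of the 15 and higher for 2, where 10.2% of all genes tested were called lower and 5.53% higher. Among the 8 were Hmgb2 (-0.91 ± 0.15, edgeR adjusted p = 0.0019) and Hmgb3 (-0.61 ± 0.14, edgeR adjusted p = 0.010). Hmgn3, a nucleosome-binding protein, was the largest of the 3 that rose with romidepsin in both lines (log2 2.22 in NRF2 cells and 1.23 in EV cells), before Tox4 (1.08 and 0.79) and Hmg20b (0.57 and 0.43). It was at 0.501 ± 0.0718 CPM in NRF2 cells with DMSO, against 4.97 ± 0.162 CPM in EV cells with DMSO (log2 -3.32 on 31 and 307 counts, edgeR adjusted p = 1.7e-10).

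Likeness of pattern was measured as the root mean square difference of log2 CPM over the 12 libraries, each gene centred on its own mean, among 11356 tested genes. These values describe the libraries and carry no test. Nearest to Twist1 were Hecw1 (0.195), Etv1 (0.330) and Lpar4 (0.338), where the median gene lay at 1.39. The median gene lay at 1.17 for Hmga2, 1.1 for Snai1, 0.929 for Prrx1 and 0.844 for Zeb2. It lay at 0.542 for Hmga1, 0.519 for Twist2, 0.423 for Snai2 and 0.416 for Zeb1. A distance is to be read beside the median of its own member. Nearest to Hmga2 were Card6 (0.0868), Hmgb3 (0.104) and Anp32b (0.108), and nearest to Hmga1 were Alyref (0.0474), Ppp4r1 (0.0518) and Polr3d (0.0548). Snai1 was most like Aldh1a7 (0.250), Serpinb8 (0.256) and Ston2 (0.260), and Prrx1 was most like Nupr1 (0.117), Tead2 (0.133) and Kcnf1 (0.138), the last of which was also nearest to Zeb2 (0.143). Zeb2 was followed by Tnrc18 (0.150) and Nfib (0.158). Twist2 was nearest to Samd14 (0.0993), Zmym3 (0.115) and Osbpl1a (0.121), Snai2 to Rbmx2 (0.0811), Alg13 (0.0843) and Mis12 (0.0910), and Zeb1 to Capn5 (0.0713), Ggta1 (0.0749) and Pspc1 (0.0772). Among the members themselves the closest pairs were Twist2 with Hmga1 (0.147) and Zeb2 with Prrx1 (0.202). Twist1 and Twist2, paralogs with the same DNA-binding fold, lay 1.37 apart, and Snai1 and Hmga2 were the farthest pair at 2.18.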

How the data were processed

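Estimated counts per gene were deposited by the authors for 12 poly-A libraries, 3 in each of 4 groups taken from the sample titles. Per the submitters' processing notes, bcl2fastq 2.19, kallisto 0.44.0, DESeq2 and the build GRCm38 were used; the annotation release and the use of strand were not given in the sources used here. The values were whole numbers. The authors also deposited a signal table of normalised values, used here for 1 alternative.

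Genes with low counts were removed with filterByExpr, leaving 13502 of 35013 (12331 had no count), and 1 edgeR 4.0.16 quasi-likelihood model (R 4.3.3) with TMM scaling was fitted to all 4 groups. The threshold was a Benjamini-Hochberg adjusted p of 0.05 over all genes tested. CPM per kilobase used the longest transcript in GENCODE M21. Library totals limit precision for genes with few counts. The members and the 10 lists were chosen with earlier results of these data known. From each list and comparison up to 3 called genes with the largest change and a mean of at least 1 CPM were named, plus the largest against the majority, and 3 genes of most like pattern per member. The fit was tested on simulated data. It recovered 78 to 91% of 2-fold changes in the pairwise comparisons and 74% in the interaction. Only 12% of 1.25-fold changes in the interaction were recovered. False calls were 2.86 to 6.63% of calls in the pairwise comparisons and 7.69% in the interaction. Each simulation changed 100 of 13502 genes 2-fold, 50 genes 1.5-fold and 50 genes 1.25-fold. The other genes had the same mean in all groups, with spreads estimated from these data. In the real data far more genes were called, and replicate 3 of NRF2 cells with DMSO stood apart. These shares of recovery and of false calls therefore need not hold for the real data. Alternatives of scaling and filter were median-ratio (RLE) scaling, upper-quartile scaling, library size alone, no filter, and at least 1 CPM in 3 libraries. Alternatives of the test were DESeq2 1.42.0, and limma 3.58.1 on the counts (voom) and on the normalised values. Further ones were the 2 groups of a pairwise comparison fitted alone, a replicate block, summing Hmga1 with Hmga1b, and leaving out each library. List counts that leave out NRF2 DMSO replicate 3 were added after seeing the data. Protein sequences were not used here.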

Additional observations from a re-analysis of the deposited data

Results flagged for a closer look

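The romidepsin effect differed between the lines for 3 members, by the test of the interaction in edgeR, which called 15.8% of all genes (10.2% lower). The effect in NRF2 cells minus that in EV cells was -0.75 on the log2 scale for Hmga2, whose log2 fold changes were -2.65 in NRF2 cells and -1.90 in EV cells. It was -0.51 for Snai2, with -0.62 in NRF2 cells and -0.12 in EV cells, the last of which did not pass the test by itself. It was -0.24 for Hmga1, with -1.13 in NRF2 cells and -0.89 in EV cells. The Snai2 call was lost in 4 of 21 alternative settings and the Hmga1 call in 5 of 22.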

How the results depend on the processing

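Of 986 recomputations of member results, 946 kept their direction and side of the threshold, 30 lost a call, 3 gained one and 7 changed sign, none of the 7 in a called value. Of 3891 recomputations for named list genes, 3808 kept both. With library size alone Snai2 in EV cells gave 0.01 for romidepsin over DMSO. Leaving out a library, the log2 value for NRF2 over EV with DMSO ran from -0.18 to 0.34 for Snai1. NRF2 over EV with romidepsin ran from -0.2 to 0.04 for Twist2 and from -0.15 to 0.06 for Kdr. The interaction ran from -0.04 to 0.48 for Snai1 and from -0.01 to 0.19 for Zeb2.

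Members called higher in NRF2 over EV with DMSO numbered 1, against 2, with library size alone, no filter, DESeq2, limma and the replicate block (the Twist2 call was lost), and 1 to 3 without a library. NRF2 over EV with romidepsin gave 0 to 1 higher without a library. The interaction gave 0 to 1 higher and 1 to 3 lower members. Over all genes it gave 465 (without EV romidepsin replicate 2) to 921 higher, against 747, and 959 to 2127 (without NRF2 DMSO replicate 3) lower, against 1380. Causes were not tested. Without NRF2 DMSO replicate 3, 77 of 90 list counts stayed within 1.5 times and 13 moved.

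Same-numbered libraries had correlations of -0.123 to 0.0625 between their deviations from the group means. No pairing by number was seen, but these values cannot exclude one. In the replicate block 1 member was higher and 3 lower for NRF2 over EV with DMSO, and 0 higher and 3 lower for the interaction. With library size alone the median gene stood at 0.15 in NRF2 and 0.13 in EV cells for romidepsin, against 0.01 in each, and 58.3% of called genes in EV cells were then higher, against 51.1%. Twist1 in NRF2 cells and Snai1 with DMSO rested on few counts, which limits their precision.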
